A study of Mus musculus with 18 samples.

Results

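The genes described here are 10 genes of Wnt and R-spondin signalling: the ligands Wnt4, Wnt5a, Wnt6, Wnt9a and Wnt11, the R-spondin Rspo1, the transducer Ctnnb1, the nuclear factor Lef1, and the pathway targets Axin2 and Znrf3. They were chosen by gene symbol, with earlier results of these data known. All 10 were found among the 30172 genes of each library. Counts of these genes set beside shares over all genes are therefore a description and not a test. Whole ovaries of wild-type C57BL/6J females of the first filial generation (F1) were sequenced on postnatal day (Pd) 3, 7 and 21. The F1-HHcy mice were born to dams fed 3% methionine, which raises homocysteine (hyperhomocysteinemia, HHcy), from some weeks before mating, a span that the labels and the study's methods give differently, until the end of lactation, and the F1-Control mice were born to dams on control diet. Each combination of diet and day had 3 libraries, 18 in all, and the labels give batch 1 for the 2 earlier days and batch 2 for Pd21. The sources used here do not give whether a library held the ovaries of 1 pup or of several, so the p-values measure the spread between these libraries.

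Wnt ligands bind Frizzled and Lrp receptors. In the canonical branch the signal spares beta-catenin, the product of Ctnnb1, from destruction, and beta-catenin then acts with TCF and LEF factors on target genes such as Axin2. R-spondins bind Lgr receptors and take the ubiquitin ligases Znrf3 and Rnf43 off Frizzled, which strengthens the response. In the fetal gonad, Rspo1 and Wnt4 are known as the signals that hold the somatic cells on the ovarian course, and Lgr5 marks the surface epithelium and pregranulosa cells of the newborn ovary.

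Levels are given as FPKM (fragments per kilobase of gene and per megafragment of the library), a scale on which genes of different length can be compared. Between 33630641 and 39399281 fragments lay on genes in each library, which left between 73 fragments (Wnt11) and 31873 fragments (Ctnnb1) behind the value of a single gene in a single library. Calls rest on limma with log2(FPKM + 1), which understates the change of genes at low levels: a called gene had an unadjusted p below 0.05 and differed by more than 0.58 on the log2 scale. Adjusted p-values are Benjamini-Hochberg values of limma over all genes tested. Exact permutation tests of single genes are not quoted, because 0.1 is the smallest p that they allow with 3 libraries in each of 2 groups.

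At Pd3, 3 of the 10 genes were called lower in F1-HHcy ovaries (Wnt6, Rspo1 and Axin2) and none was called higher. Over all 13277 genes tested at that day, 4.74% were called lower and 5% higher. At Pd7, again 3 of 10 were called lower (Wnt6, Rspo1 and Wnt11) and none higher, beside 7.35% lower and 9.06% higher among 13299 genes. At Pd21 none of the 9 genes that passed the filter was called, where 5.06% of 13350 genes were called lower and 0.0824% higher. The median log2 fold change of the tested genes of the group was -0.08 at Pd3, -0.40 at Pd7 and -0.28 at Pd21, beside -0.03, -0.0015 and -0.01 over all genes tested.

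Because these 4 genes were called lower at Pd3 or Pd7, the start regions of their RefSeq gene models on GRCm38.p6 are shown, each from 250 bases before to 50 bases after the annotated start site, 5′ to 3′ on the plus strand. Capitals mark matches to the TCF/LEF motif, searched on both strands, and to the TATA box, spelled TATAAA and searched on the plus strand. The TCF/LEF motif had 4 forms, of which the first was spelled CTTTGAA, the second CTTTGAT, the third form CTTTGTA and the last one CTTTGTT.
Wnt6, chr1:74771642-74771941, within the RefSeq gene model that spans 74754342 to 74785322: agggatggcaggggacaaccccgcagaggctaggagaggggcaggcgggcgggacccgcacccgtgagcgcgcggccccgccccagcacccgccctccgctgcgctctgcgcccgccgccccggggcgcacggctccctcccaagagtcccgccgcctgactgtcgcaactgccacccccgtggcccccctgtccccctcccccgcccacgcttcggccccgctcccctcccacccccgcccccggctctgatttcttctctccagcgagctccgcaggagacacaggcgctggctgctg
Rspo1, chr4:124986180-124986479: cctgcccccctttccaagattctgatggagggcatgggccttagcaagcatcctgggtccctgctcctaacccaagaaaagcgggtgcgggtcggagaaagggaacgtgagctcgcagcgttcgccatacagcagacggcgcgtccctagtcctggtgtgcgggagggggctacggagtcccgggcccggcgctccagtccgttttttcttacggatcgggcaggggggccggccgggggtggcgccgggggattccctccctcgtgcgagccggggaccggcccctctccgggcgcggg
Wnt11, chr7:98834862-98835161, the first of 2 start sites: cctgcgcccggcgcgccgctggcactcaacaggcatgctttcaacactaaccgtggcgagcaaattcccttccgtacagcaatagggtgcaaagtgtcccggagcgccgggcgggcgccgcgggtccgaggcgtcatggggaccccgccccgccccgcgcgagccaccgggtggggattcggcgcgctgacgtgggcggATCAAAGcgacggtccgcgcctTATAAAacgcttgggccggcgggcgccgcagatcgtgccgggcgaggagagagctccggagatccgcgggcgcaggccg
Axin2, chr11:108920099-108920398, within the gene model that spans 108917828 to 108950783: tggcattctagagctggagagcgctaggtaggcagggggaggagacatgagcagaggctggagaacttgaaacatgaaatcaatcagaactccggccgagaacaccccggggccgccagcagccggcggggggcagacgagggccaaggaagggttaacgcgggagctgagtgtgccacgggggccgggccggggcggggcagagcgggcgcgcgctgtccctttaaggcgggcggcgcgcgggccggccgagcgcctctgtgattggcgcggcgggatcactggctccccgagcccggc
The Wnt11 window held a TCF/LEF match (ATCAAAG, the reverse complement of the second form) whose first base lay at -51 from the start site, and a TATA box at -29. The other 3 windows held neither. Of all 32851 windows of this length in the RefSeq table, 16.9% held a TCF/LEF match and 8.32% the TATA box. Of the 13 windows that the table gave for 8 of the 10 genes, 2 held a TCF/LEF match, the other being the most downstream of 4 Lef1 start sites. A match describes the letters only, and bases outside these windows were not searched.

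Wnt6 was the most abundant of the 5 ligands in F1-Control ovaries at Pd3 and had the largest diet effect of the 10 genes at that day. At Pd3 its FPKM values were 70.6, 66.4 and 71.7 in F1-Control and 19.1, 31.3 and 48.7 in F1-HHcy ovaries. The control libraries lay close together and all 3 F1-HHcy libraries lay below them, spread widely. Wnt6 fell by 1.15 on the log2 scale (SE 0.29, adjusted p = 0.0752), from a mean of 69.6 ± 2.83 to 33.0 ± 14.9 FPKM (SD, n = 3). At Pd7 the values were 28.9, 31.5 and 17.2 in F1-Control and 14.8, 12.5 and 16.4 in F1-HHcy. The groups again did not overlap, although the lowest control library stood close to the highest F1-HHcy library, and Wnt6 fell by 0.75 (SE 0.22, adjusted p = 0.0530). With all 18 libraries in 1 model the same fold was no longer called (unadjusted p = 0.0793). In bulk ovaries fewer cells of a type and less RNA per cell cannot be told apart, for this gene and for those that follow.

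Rspo1, the secreted amplifier of the pathway, was called lower at both neonatal days. Its Pd3 values were 58.1, 63.4 and 61.2 FPKM in F1-Control and 25.5, 44.6 and 43.2 in F1-HHcy, with every F1-HHcy library under every control library. The fall was 0.72 on the log2 scale (SE 0.21, adjusted p = 0.103). At Pd7 the values were 45.0, 33.8 and 23.0 in F1-Control and 16.6, 19.8 and 11.2 in F1-HHcy, again without overlap. The fall was 1.03 (SE 0.26, adjusted p = 0.0325), and the means were 33.9 ± 11 and 15.9 ± 4.35 FPKM (SD, n = 3).

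Axin2, a scaffold of the beta-catenin destruction complex and a general readout of canonical Wnt signalling, read 28.7, 26.0 and 29.6 FPKM in F1-Control and 13.3, 18.4 and 18.8 in F1-HHcy ovaries at Pd3. The groups were well apart, and Axin2 fell by 0.72 (SE 0.15, adjusted p = 0.0480), the single gene of the group with an adjusted p under 0.05 at this day, where 3.07% of all genes had one. At Pd7 it read 21.0, 8.90 and 12.5 in F1-Control and 10.8, 10.7 and 8.36 in F1-HHcy. The groups overlapped because the control library 2 lay among the F1-HHcy libraries, and the difference was not called (log2 fold change -0.39, 95% interval -0.97 to 0.18).

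The F1-HHcy library 1 held the lowest Pd3 value of Wnt6, Rspo1, Axin2 and Lef1. Without it, Rspo1 (-0.46, unadjusted p = 0.00366 by limma) and Axin2 (-0.57, unadjusted p = 0.00167 by limma) no longer reached the fold threshold, and 1 of the 10 genes, Wnt6, was called at Pd3. Control library 2 had the lowest F1-Control value at Pd7 of Axin2, Lef1, Wnt5a and Znrf3. Over all genes its FPKM values summed to 532003, beside 405411 to 439579 in the other Pd7 libraries. It held 12831 genes at 1 FPKM or more, the fewest at Pd7. Without this library, 5 genes were called lower at Pd7, with Lef1 at -0.60 and Axin2 at -0.66 in addition to the 3 above.

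Wnt11, a ligand best known from noncanonical signalling and morphogenesis, was at a low level throughout. At Pd3 it read 1.79, 2.53 and 2.36 FPKM in F1-Control and 1.97, 2.11 and 2.85 in F1-HHcy, values that were mixed between the diets. At Pd7 it read 2.40, 3.37 and 1.88 against 1.42, 0.653 and 1.12, with all F1-HHcy libraries lower. The fall was 0.78 on the log2 scale (SE 0.21, adjusted p = 0.0390), and limma-voom, which works on fragment numbers recovered from the FPKM values, gave -1.28.

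**Figure D1:**
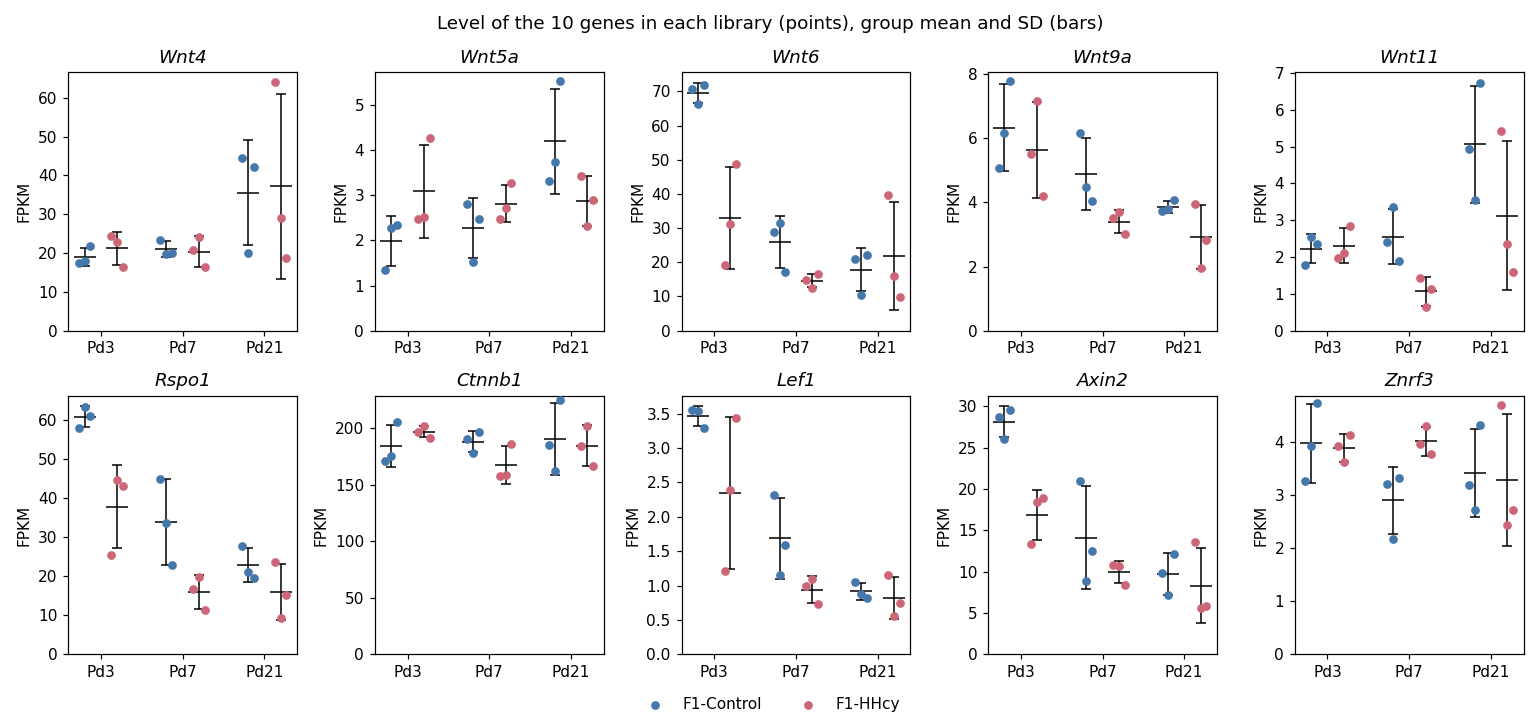
FPKM (linear axes from 0) of each of the 10 genes in each library (points), with the group mean and SD (black bars, n = 3), for F1-Control (blue) and F1-HHcy (red) at Pd3, Pd7 and Pd21. Wnt6, Rspo1 and Axin2 are highest in the 3 F1-Control libraries of Pd3, and the F1-HHcy libraries of that day lie below them.

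Lef1, the nuclear partner of beta-catenin and itself a target of the pathway, was not called at any day. Its Pd3 values were 3.55, 3.53 and 3.29 FPKM in F1-Control and 1.22, 2.38 and 3.43 in F1-HHcy, where the highest F1-HHcy library lay inside the control range (log2 fold change -0.47, adjusted p = 0.295). At Pd7 they were 2.32, 1.15 and 1.59 against 0.995, 1.10 and 0.725, just without overlap (-0.45, unadjusted p = 0.0387 by limma, adjusted p = 0.138). The Pd7 difference passed the fold threshold with a pseudocount of 0.1 (-0.74) and with limma-voom (-0.81). Without F1-HHcy library 3, the highest of its group, the Pd3 difference was called too (-0.70).

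The ligands Wnt4, Wnt5a and Wnt9a were not called at any day. Wnt4, which is needed for ovarian differentiation, lay between 16.3 and 24.3 FPKM in all 12 libraries of Pd3 and Pd7, with the diets mixed, and its log2 fold changes were 0.13 (95% interval -0.25 to 0.52) and -0.05 (-0.42 to 0.32). Wnt5a, a mainly noncanonical ligand, read 1.36, 2.28 and 2.33 in F1-Control and 2.48, 2.52 and 4.27 in F1-HHcy ovaries at Pd3. All F1-HHcy libraries lay above the controls, but the difference did not pass the test (0.44, adjusted p = 0.284). Wnt9a at Pd7 read 6.17, 4.48 and 4.04 against 3.51, 3.69 and 3.00, lower in each F1-HHcy library, with a fold below the threshold (-0.41, adjusted p = 0.143).

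Ctnnb1 was the most abundant of the 10 genes, between 157 and 225 FPKM in all 18 libraries, and the diets overlapped at each day. Its log2 fold changes were 0.10 at Pd3 (95% interval -0.16 to 0.36), -0.17 at Pd7 (-0.51 to 0.17) and -0.04 at Pd21 (-0.44 to 0.36). Znrf3, the ligase that R-spondins hold off, read 3.21, 2.18 and 3.32 FPKM in F1-Control and 3.95, 4.31 and 3.77 in F1-HHcy ovaries at Pd7. It was the single gene of the group above the controls in each F1-HHcy library at that day, with a fold below the threshold (0.37, adjusted p = 0.158). At Pd3 its values were mixed between the diets (-0.02, 95% interval -0.36 to 0.33).

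The diets did not overlap for 4 of the 10 genes at Pd3 (Wnt6, Rspo1, Axin2 and Wnt5a), beside 27.9% of all genes tested, and for 6 of 10 at Pd7 (Wnt6, Rspo1, Wnt11, Lef1, Wnt9a and Znrf3), beside 39% of all genes. An adjusted p under 0.05 was reached by 1 of 10 at Pd3 and by 2 of 10 at Pd7, Rspo1 and Wnt11, where 11.9% of all genes reached it. These counts turned on single libraries. At Pd3 the count was 4 without F1-HHcy library 3 and 0 without any 1 of the other 5. At Pd7 it was 3 without F1-Control library 3, 1 without F1-HHcy library 2 and 0 without any 1 of the other 4. With all 18 libraries in 1 model it was 0 at Pd3 and 1 at Pd7.

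**Figure D2:**
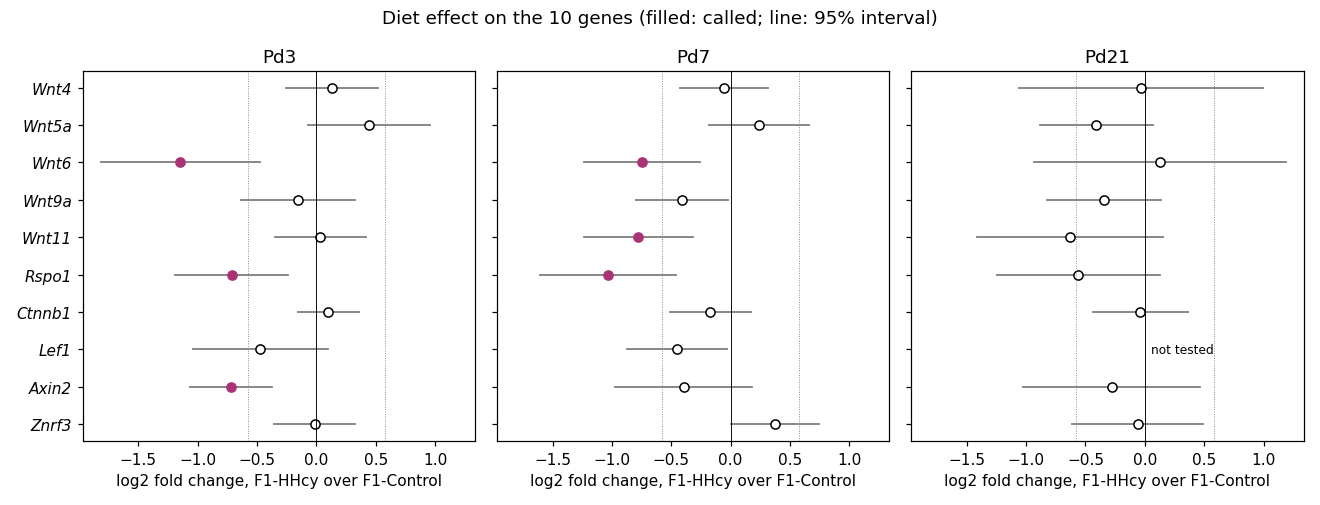
Log2 fold change of F1-HHcy over F1-Control (horizontal axis, no unit) for the 10 genes at Pd3, Pd7 and Pd21, with 95% intervals from limma; filled points are called genes and dotted lines mark the fold threshold of 0.58. The called genes lie to the left at Pd3 and Pd7, and no point is filled at Pd21, where Lef1 was not tested.

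At Pd21 the diets overlapped for each of the 9 genes tested, beside 10.5% of all genes without overlap, and none had an unadjusted p under 0.05, by limma (6.85% of all genes) or by limma-voom. Rspo1 read 27.9, 21.0 and 19.6 FPKM in F1-Control and 23.6, 9.26 and 15.2 in F1-HHcy (-0.56, 95% interval -1.24 to 0.12). Wnt11 read 4.92, 3.56 and 6.73 against 5.42, 2.35 and 1.60 (-0.63, -1.42 to 0.15). In both genes 2 of 3 F1-HHcy libraries lay below the controls and library 1 lay among them. That library also held the highest F1-HHcy value of Wnt4 (64.1), Wnt6 (39.6), Wnt11, Axin2 (13.6), Lef1 (1.15) and Znrf3 (4.71), and without it 3 genes were called lower at Pd21: Wnt11 (-1.01), Rspo1 (-0.87) and Axin2 (-0.66). Lef1 was under 1 FPKM in 4 of the 6 libraries and was left out by the filter.

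A single model with all 6 groups tested whether the diet effect differed from day to day. No gene of the group had an adjusted p under 0.05 for Pd3 and Pd7 (0.411% of all genes), for Pd7 and Pd21 (3.89%) or for Pd3 and Pd21 (4.59%), and the genes with an unadjusted p under 0.05 numbered 0 for Pd3 and Pd7 (13.8% of all genes), 0 for Pd7 and Pd21 (19.4%) and 2 for Pd3 and Pd21 (16.1%). Between Pd3 and Pd7 the difference was 0.40 for Wnt6 (95% interval -0.79 to 1.59), -0.32 for Rspo1 (-1.21 to 0.58) and 0.33 for Axin2 (-0.56 to 1.21). These intervals span more than the diet effects themselves, so neither a like nor an unlike effect at the 2 ages was shown. For Wnt11, called at Pd7 alone, it was -0.81 (-1.64 to 0.02, adjusted p = 0.370). By unadjusted p this difference of Wnt11 was called with a pseudocount of 0.1 (-1.25), with median-ratio scaling (-0.84), with the 12 libraries of batch 1 alone (-0.81), and without F1-Control Pd7 library 3 (-0.95) or F1-HHcy Pd7 library 1 (-0.93). Between Pd3 and Pd21 the difference was -0.85 for Wnt5a (SE 0.31, adjusted p = 0.154) and 1.27 for Wnt6 (SE 0.57, adjusted p = 0.269), and there age and batch cannot be told apart. The call of Wnt6 held with 5 of the 12 libraries left out in turn.

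Wnt6, Rspo1, Axin2 and Lef1 were called lower at Pd7 than at Pd3 within each diet, in comparisons that use the same libraries as those of diet. In F1-Control ovaries 4 of 10 were called lower with age and none higher: Wnt6 (-1.44, adjusted p = 0.0312), Axin2 (-1.02, adjusted p = 0.0364), Rspo1 (-0.87, adjusted p = 0.0678) and Lef1 (-0.76, adjusted p = 0.0340). Over all 14607 genes of that model 6.89% were called lower and 6.76% higher. In F1-HHcy ovaries 5 of 10 were called lower: Rspo1 (-1.19, adjusted p = 0.0351), Wnt6 (-1.04, adjusted p = 0.129), Lef1 (-0.73, adjusted p = 0.0555), Axin2 (-0.70, adjusted p = 0.165) and Wnt11 (-0.69, adjusted p = 0.146), beside 6.03% of all genes lower and 5.76% higher. Ctnnb1 and Wnt4 were not called with age in either diet. Without F1-Control Pd7 library 3 the Rspo1 fall with age in F1-Control was no longer called (-0.63). Without F1-HHcy Pd3 library 3 those of Wnt6 (-0.72), Wnt11 (-0.57), Lef1 (-0.50) and Axin2 (-0.61) in F1-HHcy were no longer called. In F1-HHcy the falls of Wnt6 (-0.94) and Wnt11 (-0.54) were also lost without Pd7 library 2, and that of Axin2 without Pd3 library 2 (-0.63) or Pd7 library 3 (-0.59).

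Ordered by group mean, Wnt6, Rspo1, Lef1 and Axin2 shared the first 3 places: F1-Control Pd3, then F1-HHcy Pd3, then F1-Control Pd7. This order rests on the same libraries as the comparisons of diet and age. Its share over all genes was not counted. For Wnt6 the means were 69.6, 33.0 and 25.9 FPKM, for Rspo1 60.9, 37.8 and 33.9, and for Axin2 28.1, 16.8 and 14.1. The F1-HHcy Pd3 libraries overlapped the F1-Control Pd7 libraries for all 4 genes, and this pair of groups differs in both age and diet. Wnt9a, which was not called for diet at any day, had the same first 3 places (6.34, 5.63 and 4.90 FPKM). Each of these Wnt9a groups overlapped the next. Lower in the order, F1-HHcy Pd7 and both Pd21 groups overlapped their neighbours for Wnt6, Rspo1 and Axin2. Wnt11 and Wnt4 had another order, with both Pd21 groups at the top (Wnt11 5.07 and 3.12 FPKM, Wnt4 35.5 and 37.3 in F1-Control and F1-HHcy) and a wide spread in them. Levels at Pd21 are set beside the others without a test, since Pd21 is a batch of its own.

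The rest of the pathway was read from 7 lists with 93 further genes, of which 92 were in the files and 62 or 63 were tested at a day. These lists too were chosen with earlier results of these data known. At Pd3, 5 of 62 were called higher and 3 lower, beside 5% and 4.74% of all genes. At Pd7 6 of 63 were called higher and 7 lower, beside 9.06% and 7.35%, and at Pd21 none was called higher and 3 lower, beside 0.0824% and 5.06%. These counts lay near the shares over all genes. The medians over these genes were 0.006, 0.09 and -0.12 on the log2 scale, beside -0.03, -0.0015 and -0.01 over all genes tested.

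Among the R-spondin receptors, Lgr4 was called lower at Pd3, Lgr5 at Pd3 and Pd7, and Lgr6 was called higher at Pd7. Lgr5 read 30.1, 33.6 and 36.3 FPKM in F1-Control and 11.9, 26.6 and 20.5 in F1-HHcy ovaries at Pd3 (-0.80, adjusted p = 0.130), and 25.7, 9.28 and 11.8 against 6.05, 6.25 and 5.46 at Pd7 (-1.14, adjusted p = 0.0376). The diets did not overlap at either day. Lgr4 read 32.1, 36.1 and 27.2 against 13.0, 18.5 and 25.6 at Pd3 (-0.75, adjusted p = 0.116). At Pd3 the calls of Lgr4 (-0.52) and Lgr5 (-0.49) were lost without F1-HHcy library 1, and that of Lgr5 also without F1-Control library 3 (-0.73, unadjusted p = 0.0594 by limma). Lgr6, which was under the filter at Pd3, read 0.882, 0.611 and 1.22 in F1-Control and 3.13, 2.41 and 4.28 in F1-HHcy ovaries at Pd7 (1.16, adjusted p = 0.00824). All F1-HHcy libraries lay above the controls. Lgr4 was not called at Pd7 (-0.39, adjusted p = 0.155), and at Pd21 none of the 3 receptors was called (Lgr4 -0.0074, Lgr5 0.04 and Lgr6 -0.06). Of the other R-spondins, Rspo2 was called higher at Pd3 (0.90, adjusted p = 0.0714) and Rspo3 lower at Pd21 (-1.25, adjusted p = 0.104).

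Of the other receptors and the ligand-processing genes, Gpc3, a cell-surface proteoglycan that binds Wnt, was higher at Pd3 (0.88, adjusted p = 0.0225). The coreceptor Lrp5 (0.79, adjusted p = 0.0666) and Porcn, the acyltransferase that Wnt ligands need for secretion (0.67, adjusted p = 0.0576), were higher at Pd7. Both of these calls were lost without control library 2 (0.46 and 0.49).

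The secreted and membrane inhibitors moved both ways. Sfrp2, a decoy that binds Wnt ligands, was called lower at each day (-1.37, -1.48 and -1.50, adjusted p = 0.133, 0.0108 and 0.170). Its Pd7 values were 5.33, 4.24 and 1.83 FPKM in F1-Control and 0.791, 0.773 and 0.364 in F1-HHcy ovaries. At Pd7 it passed the filter of 1 FPKM in 3 libraries through the controls alone, so the groups had to differ there, and it dropped out of the test with any control library left out. Without the filter its adjusted p at Pd7 was 0.0916. The Pd3 ranges overlapped and its Pd3 call was lost without F1-Control library 2 (-1.17) or F1-HHcy library 2 (-1.24). Sfrp4 (-0.66) and Shisa2 (-0.85, adjusted p = 0.0377) were lower at Pd7. Sfrp1 (0.86, adjusted p = 0.0303) and Dkk3 (0.81) were higher at Pd3, and Apcdd1 was higher at Pd3 (0.84) and Pd7 (0.60). At Pd7 the call of Sfrp4 was lost without library 3 of either diet (-0.54 and -0.51), and that of Apcdd1 without control library 2 (0.49) or F1-HHcy library 3 (0.46). The Sfrp4 call was lost as well with all 18 libraries in 1 model (unadjusted p = 0.0573 by limma), and the Apcdd1 call with median-ratio scaling (0.577).

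Of the 9 listed target genes, 6 were tested at Pd7 and all 6 had a negative log2 fold change, with a median of -0.74 beside -0.0015 over all genes. The called ones were Tnfrsf19 (-1.14, adjusted p = 0.0142), the transcription factor gene Sp5 (-0.90, adjusted p = 0.0351) and Ccnd1, which codes for cyclin D1 (-1.04, adjusted p = 0.0119). Tnfrsf19 read 54.3, 38.6 and 27.0 FPKM in F1-Control against 17.4, 18.9 and 14.5 in F1-HHcy ovaries at Pd7, with no overlap. At Pd3, 5 of these 6 had a negative value and none was called, and at Pd21 all 6 were negative and Ccnd1 was called (-1.21, adjusted p = 0.0330). Among the nuclear factors, Tcf7l1 (0.60) and Tcf7l2 (0.72, adjusted p = 0.0400) were higher at Pd7, calls that were lost without control library 2 (0.41 and 0.52). None of the 14 cytoplasmic transducers tested was called at any day, and the most abundant of them, the casein kinase gene Csnk1a1, had values of -0.08, -0.06 and 0.12.

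**Figure D3:**
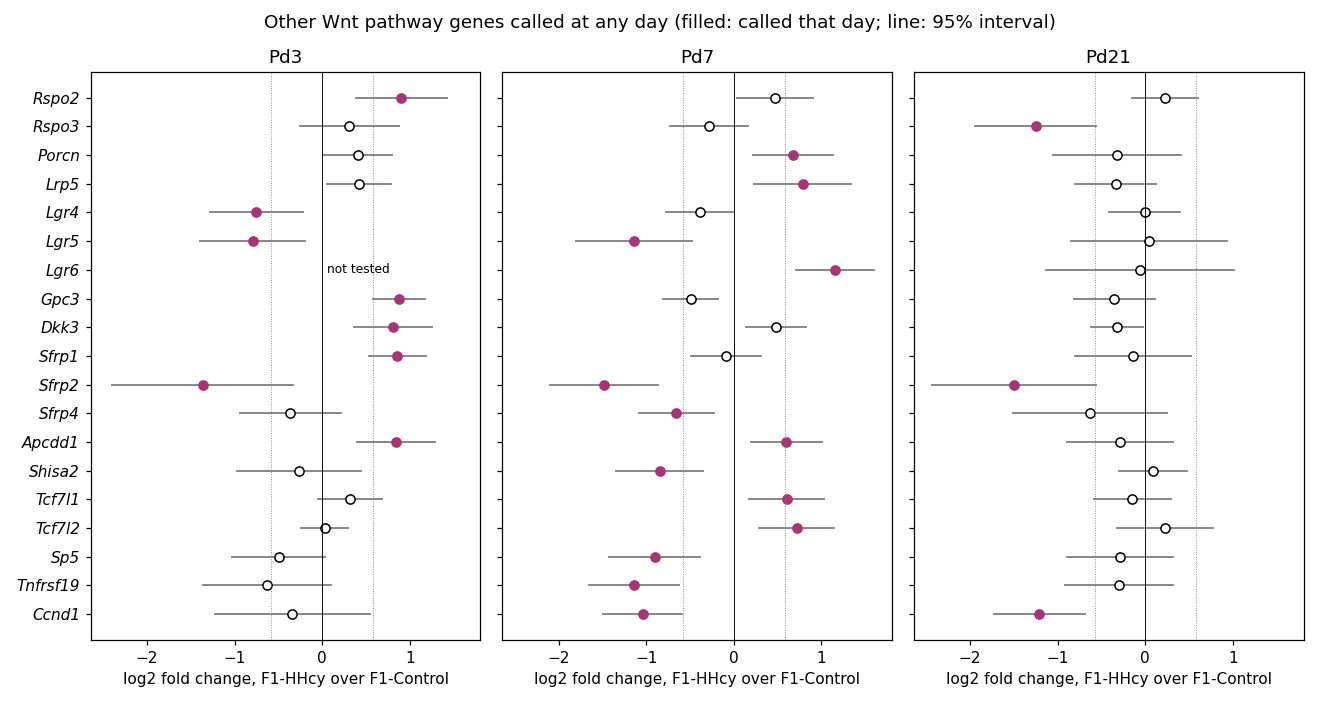
Log2 fold change of F1-HHcy over F1-Control with 95% intervals from limma for the further Wnt pathway genes called at any day, in the order ligands, processing, receptors, inhibitors, nuclear factors and targets; filled points are called on that day. Lgr5 and the targets Sp5, Tnfrsf19 and Ccnd1 lie to the left at Pd7, and Sfrp2 lies to the left at each day.

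Markers of ovarian cell types differed between the diets too. All 10 oocyte markers and all 9 granulosa cell markers were above 0 in every library. The summed level of the oocyte markers was 714 to 947 FPKM in F1-Control and 1185 to 1673 in F1-HHcy ovaries at Pd3. There 5 of 10 were called higher (Gdf9, Bmp15, Zp1, Zp2 and Zp3) and 2 lower (Dazl and Sohlh1). Ddx4, Figla and Nobox also had negative log2 fold changes, without a call. At Pd7 the sum was 1341 to 2193 against 772 to 1295, with 1 of 10 higher (Bmp15) and 7 lower. The sums of the diets thus did not overlap at Pd3 or Pd7 and stood in opposite order. At Pd21 the sums overlapped and no oocyte marker was called. For these and the following markers, the shares of all genes called lower (4.74%, 7.35% and 5.06% by day) and higher (5%, 9.06% and 0.0824%) are the background. The summed level of 9 surface epithelium markers, none of them at 0, was 649 to 723 FPKM in F1-Control and 458 to 778 in F1-HHcy ovaries at Pd3, with 2 of 9 called lower (Krt8 and Krt18). At Pd7 it was 535 to 897 against 236 to 452, with 5 of 9 lower (Krt7, Krt8, Krt18, Krt19 and Upk1b), and at Pd21 417 to 548 against 142 to 283, with 7 of 9 lower. The sum of the granulosa cell markers was 345 to 399 against 350 to 608 FPKM at Pd3 (4 of 7 tested higher, 1 lower) and 371 to 639 against 585 to 920 at Pd7 (5 of 9 higher, 1 lower).

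The summed level of 8 stroma and mesenchyme markers was 373 to 519 FPKM in F1-Control and 696 to 916 in F1-HHcy ovaries at Pd3. Its ranges overlapped at Pd7 (842 to 1037 against 590 to 995) and at Pd21 (570 to 890 against 393 to 657). The sum of 6 theca and steroidogenic cell markers was 216 to 449 against 1136 to 1195 at Pd7, with 6 of 6 called higher. At Pd3 (98.4 to 152 against 71.3 to 679) and Pd21 (583 to 1117 against 670 to 1772) the theca sums overlapped. The 6 erythroid markers, none at 0, summed to 3641 to 10440 FPKM against 749 to 1055 at Pd3, with 6 of 6 lower. At Pd7 they summed to 864 to 5210 against 269 to 470, with 4 of 4 tested lower, and at Pd21 the erythroid sums overlapped. At Pd21, 7 oviduct secretory markers summed to 88.7 to 477 FPKM in F1-Control and 28.4 to 75.1 in F1-HHcy ovaries. Their sum was 54.8 to 70.0 against 38.8 to 51.9 at Pd3. It overlapped at Pd7, with 28.7 to 41.0 against 38.0 to 49.7. The part of these cell type differences in the levels of Wnt6, Rspo1, Axin2 and Wnt11 was not tested.

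**Figure D4:**
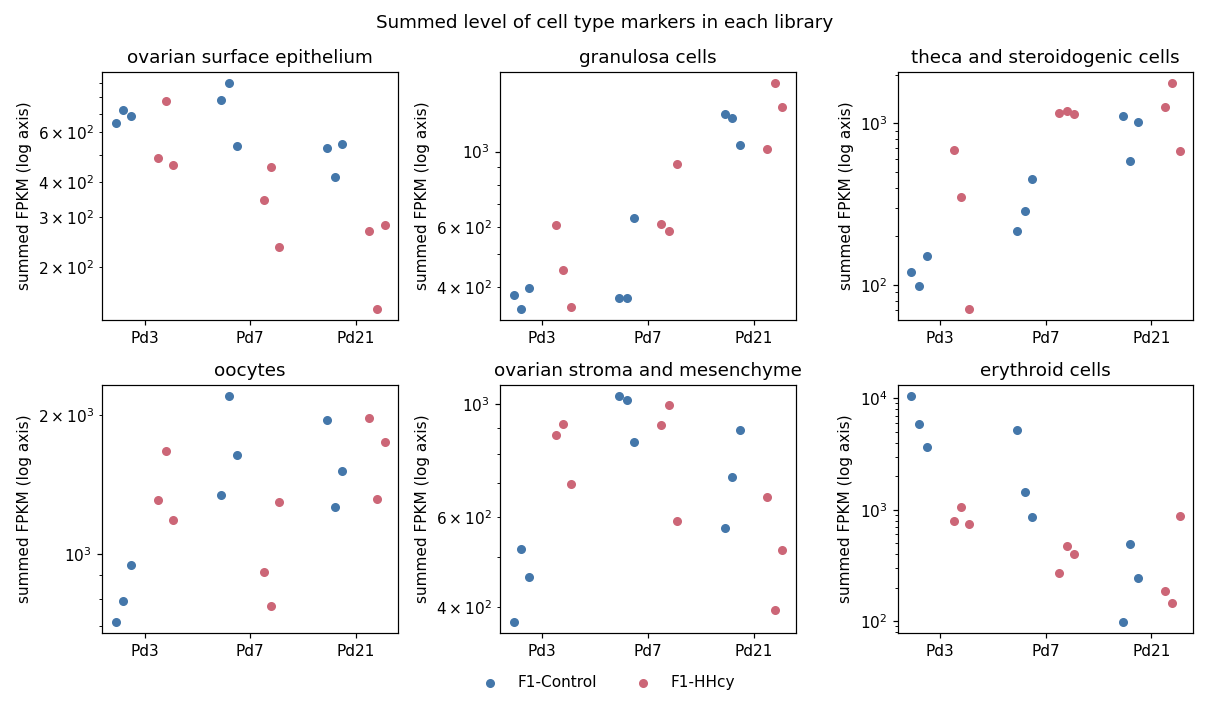
Summed FPKM (log axis) of the markers of 6 cell types in each library, for F1-Control (blue) and F1-HHcy (red) at Pd3, Pd7 and Pd21. The surface epithelium sum separates the diets at Pd7 and Pd21, the theca sum at Pd7 and the stroma sum at Pd3. The oocyte and erythroid sums separate them at Pd3 and Pd7, the oocyte sum in opposite order. The granulosa cell sums overlap at each day.

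As a description over the 18 libraries, which share depth, age and diet structure, the genes whose log2 levels most closely followed those of genes of the group were listed among 14597 genes. They were Lrrn1 (Pearson r 0.97), Acsm3 (0.96) and Colec12 (0.95) for Wnt6, and Lsr (0.97), Sp5 (0.96) and Dtx1 (0.96) for Rspo1. For Axin2 they were Cgn, Ralgps1 and Vav2 (each 0.96), and for Lef1 Cpeb3 (0.98), Rab11fip4 (0.97) and Slc26a8 (0.97). The closest genes reached 0.84 for Wnt11 (Cdipt) and Wnt4 (Pnkd), 0.85 for Ctnnb1 (Spring1), 0.92 for Wnt5a (Col15a1) and 0.93 for Wnt9a (Epn3).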

How the data were processed

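Poly-A RNA of 18 whole-ovary libraries was sequenced with a stranded kit. The authors deposited 1 FPKM value per gene symbol and library. Their processing notes name FastQC 0.11.9, Trimmomatic 0.39, STAR 2.7.9a, featureCounts 2.0.1 and DESeq2 1.36.0 with GRCm38/mm10, and the step that gave the deposited FPKM values and whether counting used the strand are not given in the sources used here. For all 27294 genes above 0 in at least 3 libraries, 1 gene length and 1 factor per library turned the values into whole fragments (within 0.02), which gave the depths.

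Diets were compared per day with limma 3.58.1 (R 4.3.3) on log2(FPKM + 1), with a variance trend, keeping genes that reached 1 FPKM in 3 or more of the 6 libraries. Differences between days and Pd7 against Pd3 came from 1 model of the 6 groups. The fits were tested on simulated data. The 10 genes, the lists and the markers were chosen with earlier results of these data known. Named genes are all 10, the further pathway genes called at any day (for a list with none, its most abundant gene) and the 3 most alike by Pearson r, of which the text gives 3 for 4 of the 10 and 1 for 5; that of the remaining gene is not reported here. Alternatives were a pseudocount of 0.1, no filter, median-ratio scaling, all 18 libraries or batch 1 alone in the model, the replicate number as a block, limma-voom on the recovered fragments, and each library left out. Promoter windows came from RefSeq (GRCm38.p6). Figures came from Python 3.11.15, pandas 2.3.3 and matplotlib 3.10.9.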

Additional observations from a re-analysis of the deposited data

Results flagged for a closer look

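For 3 further pathway genes the diet effect differed between days in the model of the 6 groups, by limma's test of the difference with an adjusted p under 0.05. The count was 3 of 63 genes for Pd3 and Pd21, beside 4.59% of all genes, 1 of 63 for Pd3 and Pd7, beside 0.411%, and 0 of 63 for Pd7 and Pd21, beside 3.89%. The diet effect on Gpc3 at Pd7 minus that at Pd3 was -1.37 on the log2 scale (SE 0.23, adjusted p = 0.0144), and at Pd21 minus that at Pd3 it was -1.23 (adjusted p = 0.00352). For Dkk3 the diet effect at Pd21 minus that at Pd3 was -1.13 (SE 0.23, adjusted p = 0.00623), and for Rspo3 it was -1.56 (SE 0.39, adjusted p = 0.0276). Gpc3 read 59.8, 78.4 and 67.9 FPKM in F1-Control and 117, 138 and 124 in F1-HHcy ovaries at Pd3, and 122, 137 and 123 against 91.5, 96.5 and 83.1 at Pd7, so the F1-HHcy libraries lay above the controls at Pd3 and below them at Pd7. Where Pd21 takes part, age and batch cannot be told apart. The count for Pd3 and Pd21 lay near the share over all genes. Under other processings or with 1 library left out, limma's adjusted p rose to at most 0.0745 for Gpc3 between Pd3 and Pd7. Between Pd3 and Pd21 it rose to at most 0.0956 for Rspo3, 0.0385 for Dkk3 and 0.0163 for Gpc3.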

How the results depend on the processing

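Among the reported values of the 10 genes, 236 recomputed values under another processing kept their direction and side of the call, 6 gained a call, 2 lost it and 3 changed sign; with 1 library left out the numbers were 256, 8, 18 and 18. For the further pathway genes, 159 kept their call and 2 lost it, and with a library left out 176 and 13. The cause was not tested. The calls of Wnt6, Rspo1 and Axin2 at Pd3 and of Rspo1 and Wnt11 at Pd7 held under all 6 other processings, but no adjusted p of the 10 genes was under 0.05 at Pd3 or Pd7 without the filter on low values. The calls that 1 library decides are named beside the results.

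The sign changed with median-ratio scaling for Znrf3 at Pd3 (0.0077), Wnt4 at Pd21 (0.025) and Ctnnb1 at Pd21 (0.0196). With 1 library left out, uncalled diet effects ranged at Pd3 from -0.32 to 0.0093 (Wnt9a), from -0.083 to 0.11 (Wnt11) and from -0.12 to 0.093 (Znrf3), at Pd7 from -0.18 to 0.092 (Wnt4), and at Pd21 from -0.51 to 0.36 (Wnt4), from -0.40 to 0.55 (Wnt6), from -0.15 to 0.087 (Ctnnb1) and from -0.29 to 0.084 (Znrf3). The number of the 10 genes called lower ranged from 1 to 4 at Pd3, from 3 to 5 at Pd7 and from 0 to 3 at Pd21, and was 1 at Pd21 with all 18 libraries in 1 model. The difference of the Wnt11 effect between Pd3 and Pd7 was called under 3 of 5 other processings: a pseudocount of 0.1 (-1.25), median-ratio scaling (-0.84) and the 12 libraries of batch 1 alone (-0.81).

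Over all genes, those called higher at Pd21 numbered 11, against 17 with a pseudocount of 0.1, 5 without a filter, 32 with median-ratio scaling and 22 with all 18 libraries in 1 model. With 1 library left out, those called lower numbered 424 to 1028 at Pd3 and 359 to 903 at Pd21, and those called higher 716 to 1550 at Pd7 and 4 to 105 at Pd21. For the difference of the diet effect, those called higher numbered 375 to 1066 for Pd3 and Pd7, 524 to 1096 for Pd7 and Pd21 (950 to 2209 lower) and 370 to 875 for Pd3 and Pd21. For Pd7 against Pd3, those called lower numbered 803 to 1525 in F1-Control and 568 to 1392 in F1-HHcy, where those called higher numbered 511 to 1116.

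The replicate numbers are shared between the diets, but deviations of same-numbered libraries from their group means correlated between -0.34 and 0.09, which showed no pairing by number. With 3 libraries in each group these values cannot exclude a pairing. With the replicate number as a block, 1 gene had an adjusted p under 0.05 at Pd3 in place of 408, those called higher at Pd21 numbered 17, and no call of the 10 genes changed. Of the 10 genes, those with an adjusted p under 0.05 then numbered 0 at Pd3 in place of 1, and 3 at Pd7 in place of 2. Genes near 1 FPKM, such as Lef1 and Wnt11 at Pd7, rest on the fewest fragments.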
